A study of Mus musculus with 16 samples.

Results

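The genes described here encode the 8 feedback inhibitors of the Socs and Cish family, Socs1 to Socs7 and Cish, out of 25755 mouse genes with a curated RefSeq start site. They were chosen by name, and every peak was collected that lay within 2500 or 5000 bp of their start sites or over their gene bodies. The cells were R1 mouse embryonic stem cells (ESCs) with a MycER fusion gene. In these cells Myc is fused to part of the estrogen receptor and is activated by 4-hydroxytamoxifen (OHT). The study's methods name 2 such clones, 1 of them with a point mutant of Myc. Its results use the name MycER for the cells with the point mutant, and the other clone was made as a check of clone dependence. That naming points to the point mutant, but which clone gave the libraries is not stated outright in the sources used here. LIF-ESCs received the cytokine LIF (100 units per ml) but no OHT, whereas Myc-ESCs received 50 nM OHT but no LIF. Both cultures carried the fusion gene and were kept without feeder cells in serum with vitamin C. The cultures therefore differed in the cytokine and in Myc activity at the same time, and the part of each cannot be told apart. The study prepared 16 ChIP-seq libraries, 2 for each culture and antibody (H3K4me3, H3K27me3 or Suz12) and 4 inputs, and deposited 6 lists of peaks, 1 per culture and antibody. The lists used here give 1 value per culture and antibody and none per library, so no value has a replicate error, no test was possible and every difference between cultures is a description.

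Socs and Cish proteins bind phosphorylated tyrosines through an SH2 domain and carry a SOCS box, which recruits a ubiquitin ligase. In the classical loop a cytokine such as LIF activates Jak kinases at its receptor, the kinases activate Stat factors, and these switch on Cish, Socs1, Socs2 and Socs3, whose products then dampen the same receptors. Socs3 binds gp130, the signalling chain of the LIF receptor, and is known to limit Stat3 activity in ESCs. H3K4me3 marks the promoters of active and poised genes. Suz12 is a subunit of Polycomb repressive complex 2 (PRC2), which deposits the repressive mark H3K27me3, and promoters that carry both H3K4me3 and PRC2 marks are called bivalent.

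Some of the short Polycomb peaks of the family are shown with their DNA, because some lie on CpG-rich coding sequence and others on DNA with few or no CpGs. They were taken from short peaks without bases in untranslated regions. CpG counts of peaks at other genes were not taken. All sequences are the reference genome GRCm38, written 5′ to 3′ on the strand of the gene, with CpG dinucleotides in capitals. The Suz12 peak of LIF-ESCs at Socs1 (chr16:10784690-10784871, minus strand) began at the first coding base and held 20 CpGs in 182 bp. The first Suz12 peak of Myc-ESCs at Socs7 (chr11:97363042-97363290, plus strand) lay in the coding part of exon 1 and held 18 CpGs in 249 bp. The H3K27me3 peak of Myc-ESCs at Socs7 (chr11:97364441-97364598, plus strand) lay in intron 1 and held 0 CpGs in 158 bp. The Suz12 peak of Myc-ESCs at Socs2 (chr10:95414080-95414327, minus strand) lay in intron 2 and held 6 CpGs in 248 bp. One of the H3K27me3 peaks of Myc-ESCs at Socs3 (chr11:117965821-117965977, minus strand) lay just downstream of the transcript and held 4 CpGs in 157 bp. Other short peaks of Myc-ESCs at Socs3 are not shown here. The Suz12 peaks among them held 0 CpGs in 177 bp and 5 CpGs in 229 bp. The H3K27me3 peaks among them held 0 CpGs in 224 bp and 4 CpGs in 204 bp.
Socs1 Suz12 in LIF-ESCs: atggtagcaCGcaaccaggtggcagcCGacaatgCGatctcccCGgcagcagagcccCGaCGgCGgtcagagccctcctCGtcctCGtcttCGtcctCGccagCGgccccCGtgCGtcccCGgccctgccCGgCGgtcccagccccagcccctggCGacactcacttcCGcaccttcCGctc
Socs7 Suz12 in Myc-ESCs: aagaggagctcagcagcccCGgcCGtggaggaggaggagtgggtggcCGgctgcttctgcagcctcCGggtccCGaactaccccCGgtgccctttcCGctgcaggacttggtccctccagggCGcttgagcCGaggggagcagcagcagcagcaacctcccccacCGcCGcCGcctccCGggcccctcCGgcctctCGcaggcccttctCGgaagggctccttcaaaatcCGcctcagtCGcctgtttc
Socs7 H3K27me3 in Myc-ESCs: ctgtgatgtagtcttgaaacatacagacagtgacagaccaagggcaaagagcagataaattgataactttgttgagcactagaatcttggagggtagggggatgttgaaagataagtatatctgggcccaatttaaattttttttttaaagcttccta
Socs2 Suz12 in Myc-ESCs: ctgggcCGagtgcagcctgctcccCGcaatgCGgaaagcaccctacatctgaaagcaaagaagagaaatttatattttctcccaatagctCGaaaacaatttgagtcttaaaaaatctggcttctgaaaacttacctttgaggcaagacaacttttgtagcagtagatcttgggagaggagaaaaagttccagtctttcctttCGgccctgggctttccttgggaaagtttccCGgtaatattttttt
Socs3 H3K27me3 in Myc-ESCs: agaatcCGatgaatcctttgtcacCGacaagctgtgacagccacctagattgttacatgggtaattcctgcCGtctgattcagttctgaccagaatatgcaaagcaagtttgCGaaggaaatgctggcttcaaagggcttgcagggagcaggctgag

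A further pair of sequences shows where the letters of a Stat dimer site, TTCNNNGAA, stand near the start sites of Socs3 and Cish. The RefSeq promoter table (GRCm38.p6, 250 bases before to 50 after each start) held 4 of the 8 genes, namely Socs1, Socs3, Socs4 and Cish. Socs2, Socs5, Socs6 and Socs7 had no entry. TTCNNNGAA, which reads the same on both strands, was found in 8.30% of all 32851 promoters of the table. The Socs3 promoter (chr11:117969367-117969616, minus strand) held 1 match, from −154 to −146 relative to the start site, which is in capitals below. At Cish, 2 matches stood at the very start of the transcript, from 0 to 8 and from 11 to 19, and only the 20 bases that contain them are shown (chr9:107296659-107296678, plus strand). The promoters of Socs1 and Socs4 held none, and the E-box CACGTG, the letters bound by Myc with Max, was found in none of the 4 and in 7.15% of all promoters. The letters of the 2 motifs cannot fully overlap. A match is a description of the letters and not a binding site.
Socs3 promoter: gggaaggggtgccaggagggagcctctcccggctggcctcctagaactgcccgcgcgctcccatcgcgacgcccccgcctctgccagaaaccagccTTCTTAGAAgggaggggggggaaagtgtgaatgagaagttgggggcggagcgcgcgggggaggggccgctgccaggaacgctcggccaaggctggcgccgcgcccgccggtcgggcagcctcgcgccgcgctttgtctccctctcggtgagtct
Cish start of transcript: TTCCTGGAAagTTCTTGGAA

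H3K4me3 was present at the start sites of all 8 genes in both cultures, and Suz12 was found at more of them in Myc-ESCs than in LIF-ESCs. Within 2500 bp of a start site, 8 of 8 genes had an H3K4me3 peak in LIF-ESCs, against 62.7% of all genes, and 8 of 8 had one in Myc-ESCs, against 63.9%. A Suz12 peak was found at 1 of 8 genes in LIF-ESCs (Socs1), against 12.2% of all genes. In Myc-ESCs a Suz12 peak was found at 4 of 8 genes (Socs1, Socs2, Socs3 and Socs7), against 14.7%. H3K27me3 was at 0 of 8 genes in LIF-ESCs, where 3.84% of all genes had it, and at 1 of 8 (Socs7) in Myc-ESCs, where 10.8% had it. The map of peaks at the 8 genes shows H3K4me3 over every start site, and Polycomb peaks at Socs1, Socs2, Socs3 and Socs7 alone.

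**Figure D1:**
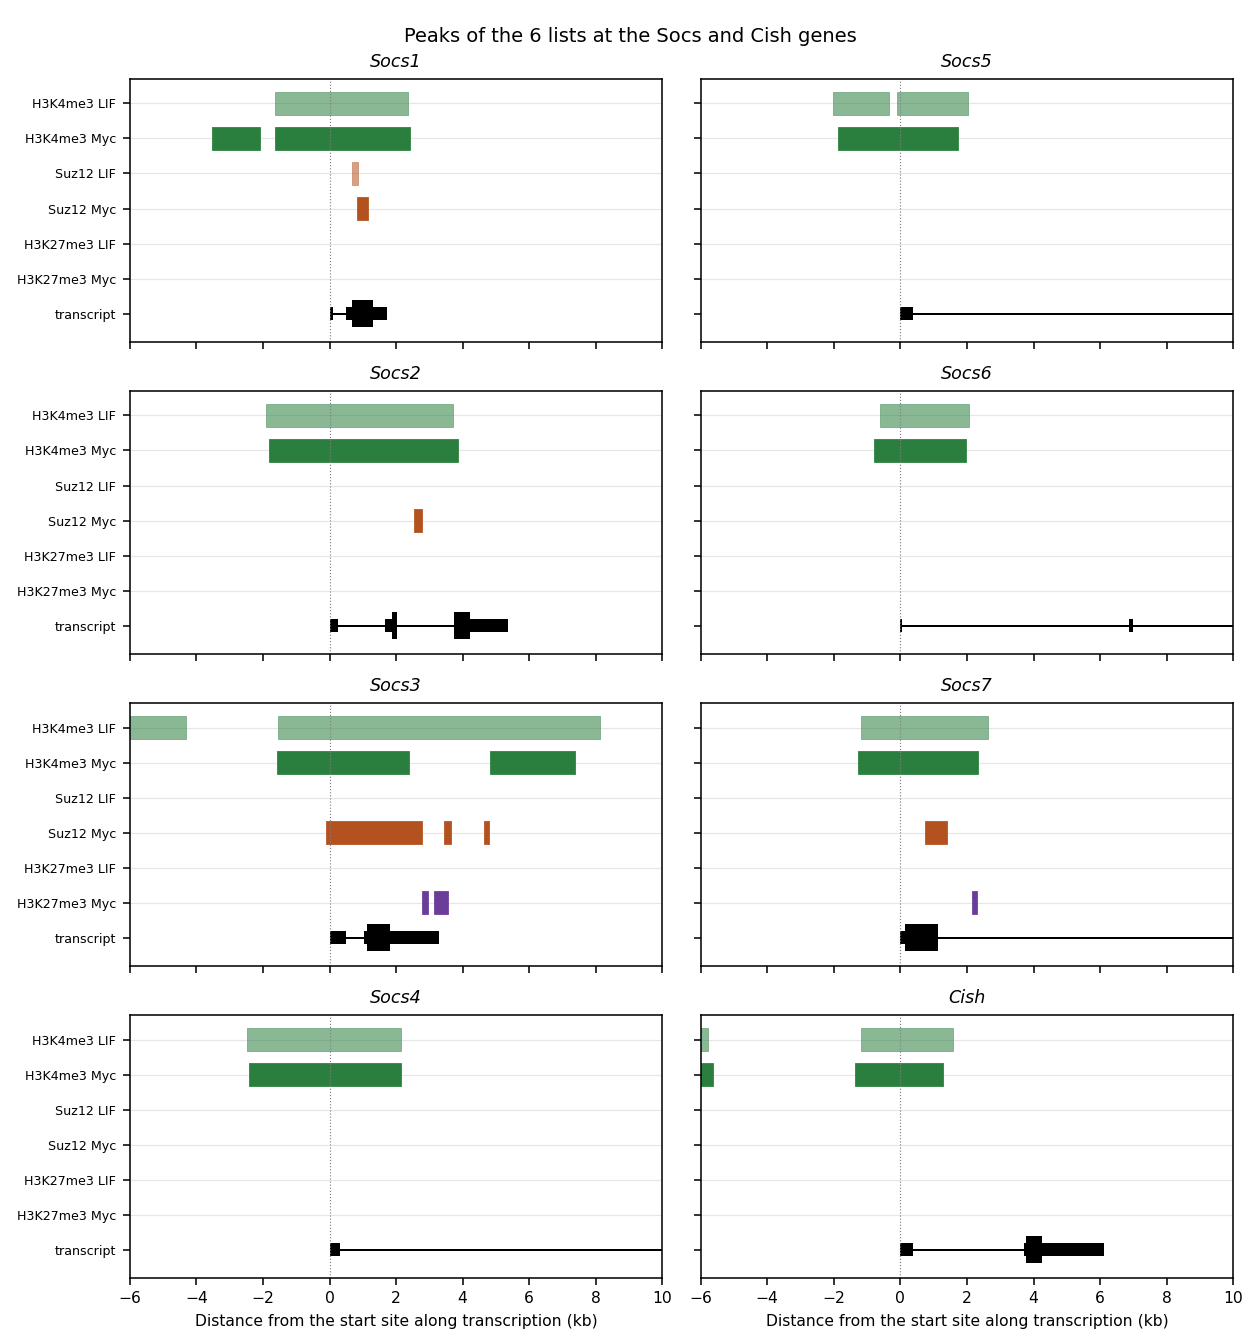
Peaks of the 6 lists (rows, light for LIF-ESCs and dark for Myc-ESCs) at the 8 genes, by distance in kb from the start site along the direction of transcription. The black model shows coding exons (tall), untranslated exons (medium) and introns (thin), and H3K4me3 covers the start site of every gene in Myc-ESCs and in LIF-ESCs.

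A wider window of 5000 bp on each side added H3K27me3 at 1 gene. H3K4me3 was again at 8 of 8 genes in either culture (64.8% of all genes had it in LIF-ESCs, 66.0% in Myc-ESCs), and Suz12 at 1 of 8 in LIF-ESCs and 4 of 8 in Myc-ESCs (all genes, 12.8% and 15.5%). H3K27me3 was at 0 of 8 genes in LIF-ESCs (all genes, 4.77%) and at 2 of 8 in Myc-ESCs (all genes, 12.0%), because the H3K27me3 peaks of Socs3 entered this window.

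Since a bivalent promoter carries H3K4me3, the family was also read against the 15852 genes with H3K4me3 at the start site in both cultures. In this set 18.1% of genes had LIF-ESC Suz12 and 22.1% had Myc-ESC Suz12, against 1 and 4 of the 8 family genes. The shares with H3K27me3 were 5.41% and 15.6%, against 0 and 1 of 8. Among the 12984 genes of the set without LIF-ESC Suz12, Suz12 appeared in Myc-ESCs at 917 genes (7.06%), and among the 7 family genes without it in LIF-ESCs it appeared at 3 (Socs2, Socs3 and Socs7). H3K27me3 appeared in Myc-ESCs at 1 of the 8 family genes (Socs7), against 11.9% of the 14994 genes without it in LIF-ESCs. Either Polycomb mark appeared in Myc-ESCs at 3 of 7 family genes with neither in LIF-ESCs, against 8.36% of 12838 genes. With counts of 3 of 7 and 1 of 8, a single gene moves the share by a large step. In a bulk culture a peak does not tell whether H3K4me3 and Suz12 stood in the same cells. The 3 genes with Suz12 in Myc-ESCs only also differed widely in how much of the promoter it covered, as shown in the plot of covered bases.

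**Figure D2:**
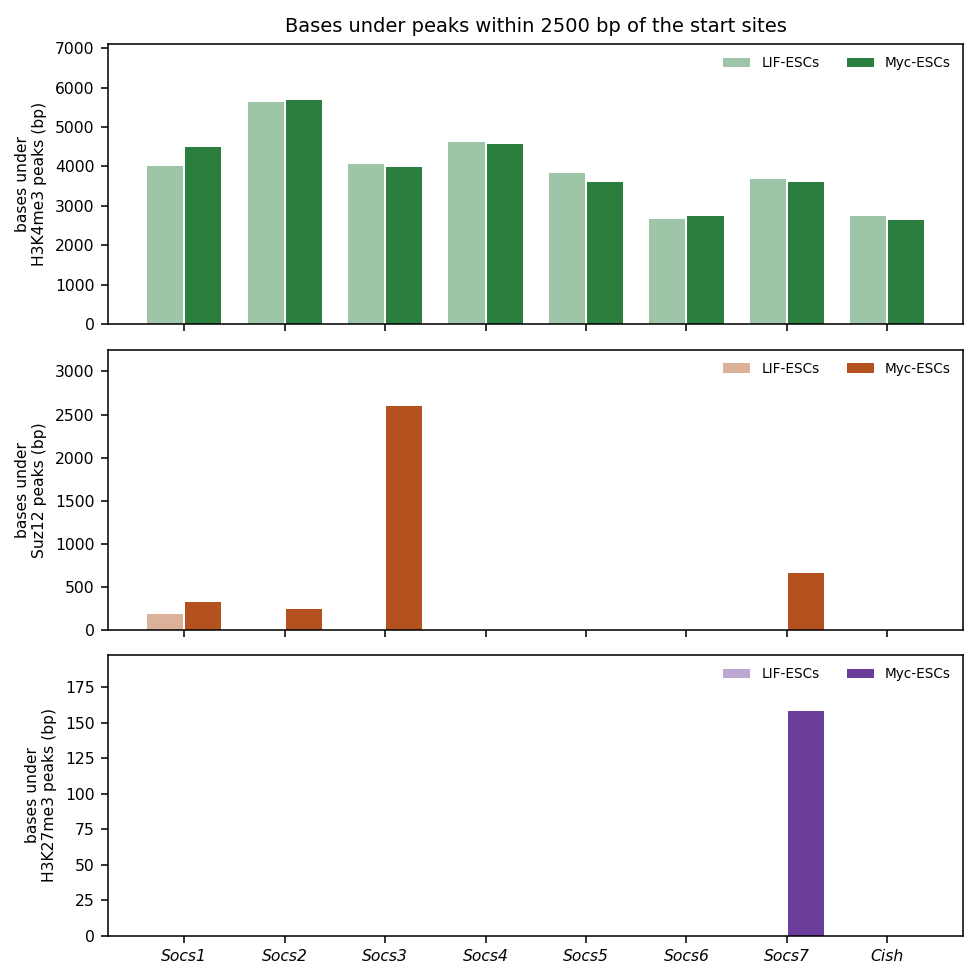
Bases under peaks (bp) within 2500 bp of the start sites of each gene (5001 bp in all, and 6575 bp at Socs2, which has 4 start sites), for H3K4me3, Suz12 and H3K27me3 in LIF-ESCs (light bars) and Myc-ESCs (dark bars), 1 list per bar and no error bars. Suz12 in Myc-ESCs covered 2604 bp at Socs3, 658 bp at Socs7, 321 bp at Socs1 and 248 bp at Socs2, and the vertical scale differs between panels.

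At Socs3 (chr11:117966079-117970336, minus strand, start site at 117969366), the family member that acts on gp130, the promoter had an H3K4me3 peak without Suz12 in LIF-ESCs, and H3K4me3 with a long Suz12 peak in Myc-ESCs. The Suz12 peak ran from 103 bp upstream of the start site to 2785 bp downstream (chr11:117966581-117969469, 2889 bp) and covered exon 1, intron 1 and the coding part of exon 2. Its score was 3100, a value at which many peaks are tied and which 522 of the 13907 Myc-ESC Suz12 peaks shared and 27 passed. It was far above the scores of 57.94 to 166.34 of the other Suz12 peaks at family start sites. The files do not define the score. It was read as the caller's usual −log10 of the peak p-value, multiplied by 10, which grows with depth, and the ties at 3100 may be p-values too small for the caller to tell apart. Within the window Suz12 covered 2604 bp, and of the 917 genes with Suz12 in Myc-ESCs alone 25 had more, at a median of 441 bp. Among all 3497 genes with Myc-ESC Suz12 and H3K4me3 in both cultures, 780 had more. The LIF-ESC list had no Suz12 peak within 574330 bp of the start site and no H3K27me3 peak within 603422 bp.

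H3K27me3 peaks at Socs3 were called in Myc-ESCs at and beyond the downstream end of the long Suz12 peak, and none at the start site. The absence of a called peak is not the absence of the mark. From its ChIP-seq data the study named Socs3 among active genes that gained H3K27me3 and became bivalent in Myc-ESCs. In a separate ChIP assay at start sites it measured H3K4me3, H3K27me3 and Suz12 at Socs3. It again described a gain of H3K27me3 there, and it measured the Socs3 transcript by qRT-PCR. The 3 peaks lay between 2769 and 3545 bp past the start, over the end of the 3′ untranslated region and the DNA that follows it. They measured 204, 224 and 157 bp, with scores of 63.25, 91.6 and 68.12. A pair of short Suz12 peaks of 229 and 177 bp followed at 3432 and 4627 bp past the start, with scores of 85.55 and 61.17. These 5 short peaks all scored below 100, the range that held 79.8% of the H3K27me3 list and 52.2% of the Suz12 list in Myc-ESCs. The H3K27me3 sequence shown above belongs to this group and partly overlaps the 229 bp Suz12 peak.

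**Figure D3:**
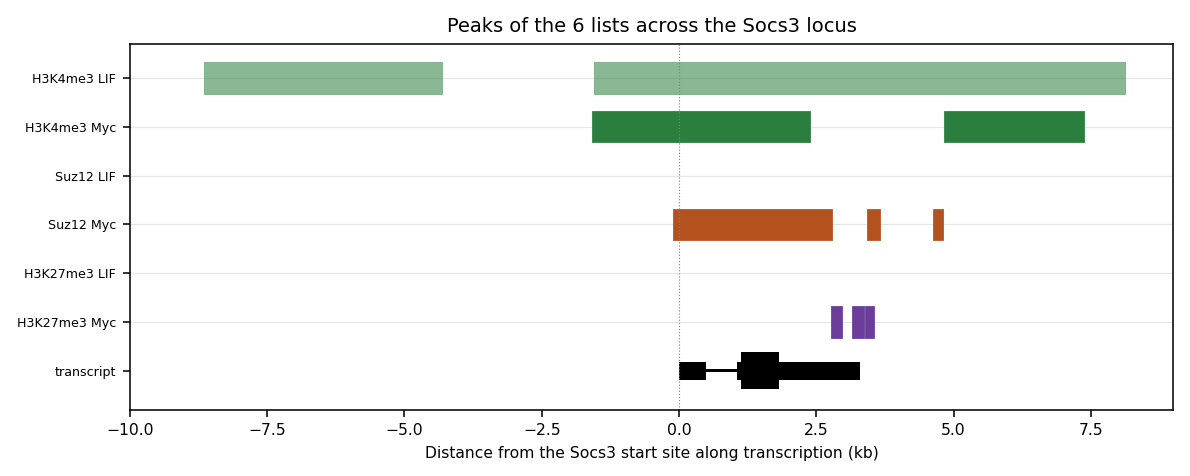
Peaks of the 6 lists across the Socs3 locus, by distance in kb from the start site along the direction of transcription, with the transcript model below. Where the LIF-ESC list has an H3K4me3 peak of 9678 bp, the Myc-ESC list has peaks of 3983 and 2554 bp, and the H3K27me3 peaks and the short Suz12 peaks of Myc-ESCs stand in the gap between them.

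The H3K4me3 domain of Socs3 was also arranged differently in the cultures. In LIF-ESCs 1 peak of 9678 bp (chr11:117961240-117970917, score 3100) ran from 1551 bp upstream of the start site to 8126 bp downstream. The Myc-ESC list held a start-site peak of 3983 bp (chr11:117966973-117970955, score 1399.19) and a separate one of 2554 bp (chr11:117961986-117964539, score 283.82). Of the LIF-ESC peak 3179 bp (32.8%) lay under no Myc-ESC H3K4me3 peak, and 91.9% of 14805 LIF-ESC start-site peaks had a smaller share, at a median of 1.6%. A second LIF-ESC peak of 4340 bp (chr11:117973673-117978012, score 832.84), whose near edge lay 4307 bp upstream of the start site, had no counterpart in the Myc-ESC list. Lower H3K4me3 scores in Myc-ESCs were not particular to Socs3, since Socs1, Socs5, Socs6, Socs7 and Cish had them too. The Myc-ESC list held 3185 peaks with a score of 3100, against 4006 in LIF-ESCs. The bearing of this on peaks found in LIF-ESCs alone was not tested. The 3 H3K27me3 peaks and the short Suz12 peaks of Myc-ESCs lay wholly under the long LIF-ESC H3K4me3 peak and shared 0 bp with a Myc-ESC H3K4me3 peak. Genome-wide, 275 of the 4247 Myc-ESC H3K27me3 peaks that overlapped a LIF-ESC H3K4me3 peak (6.48%) touched no Myc-ESC H3K4me3 peak, and for Suz12 the number was 228 of 9001 (2.53%).

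Over the family as a whole, the length of the start-site H3K4me3 peak was much the same in both cultures, and Socs3 and Socs5 stood apart in opposite directions. The longest peak at the start site had a median of 3914 bp (LIF-ESCs) and 3799 bp (Myc-ESCs) over the 8 genes, and of 3406 and 3606 bp over the 15852 genes with the mark in both. At Socs3 the Myc-ESC peak had 0.412 times the length of the LIF-ESC peak, and 0.782% of genes had a lower ratio. Its LIF-ESC peak was longer than that of 96.6% of genes, and the rank was not taken among genes of like length. At Socs5 it had 1.68 times the length (3615 against 2153 bp), and 95.9% of genes had a lower ratio. The ratio lay between 0.947 and 1.03 at the other 6 genes, close to the median of 1.04 over all genes. The plot of peak lengths shows these 6 genes near the diagonal. By bases covered within 2500 bp, the family median was 3919 bp in the LIF-ESC list and 3799 bp in the Myc-ESC list, above the medians of 2401 and 2713 bp over all genes. In LIF-ESCs the cover went from 2666 bp at Socs6 to 5630 bp at Socs2, and in Myc-ESCs from 2641 bp at Cish to 5685 bp at Socs2.

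**Figure D4:**
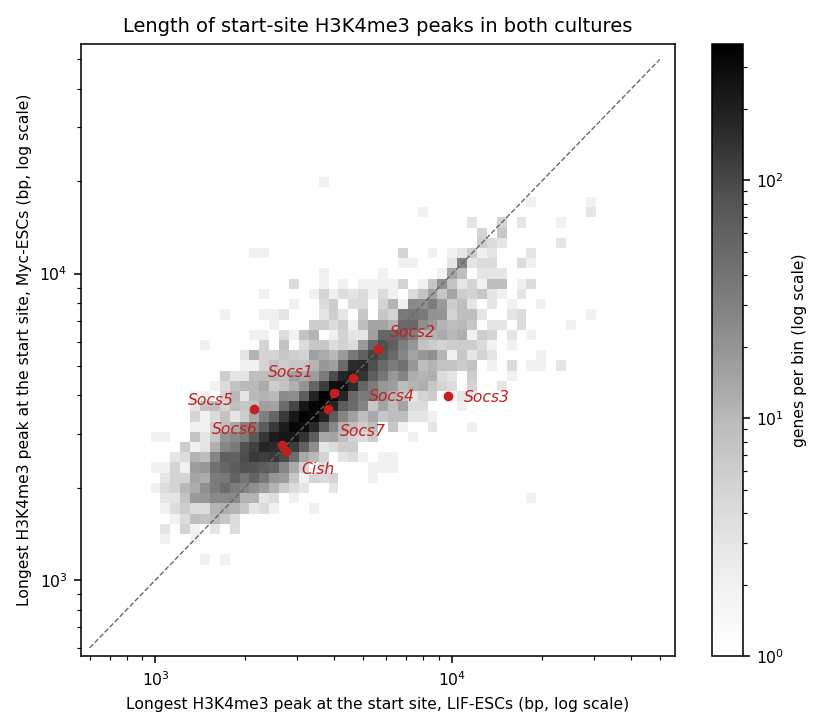
Longest H3K4me3 peak at the start site in LIF-ESCs (horizontal) against Myc-ESCs (vertical), in bp on log scales, for 15852 genes (grey bins, shaded by number of genes) and the 8 family genes (red). Socs3 lies below the dashed line of equal length at 9678 and 3983 bp, and Socs5 above it at 2153 and 3615 bp.

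The ratio at Socs5 (chr17:87107278-87137647, plus strand), whose product has been linked to receptor tyrosine kinases, came from 2 LIF-ESC peaks that were called as 1 in Myc-ESCs. The LIF-ESC peaks (chr17:87105654-87107329 and chr17:87107564-87109716, scores 408.1 and 970.99) together covered 3829 bp of the window, and the single Myc-ESC peak (chr17:87105810-87109424, score 762.6) covered 3615 bp. The covered bases were thus nearly equal at Socs5, and at Socs3 as well (4052 bp in LIF-ESCs, 3983 bp in Myc-ESCs), since the difference at Socs3 lay beyond the window. A second H3K4me3 peak stood in intron 2 of Socs5 in both cultures, 1560 bp long in LIF-ESCs, against 2014 bp in Myc-ESCs. No Suz12 peak lay within 175665 bp of the Socs5 start site in Myc-ESCs, or within 637984 bp in LIF-ESCs.

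Socs1 (chr16:10783808-10785536, minus strand), which blocks Jak kinases directly, was the only family gene with Suz12 in both cultures. The LIF-ESC peak of 182 bp had a score of 57.94, near the lowest score kept in the list (50.01). The Myc-ESC peak (chr16:10784382-10784702) was 321 bp long, had a score of 138.31 and held 42 CpGs. Both lay within the coding sequence of exon 2, between 665 and 1154 bp past the start site, and overlapped each other at their ends. These are small peaks for genes with H3K4me3 in both cultures: 4.95% of the 2868 genes with LIF-ESC Suz12 had fewer covered bases, and 15.2% of the 3497 with Myc-ESC Suz12. H3K4me3 covered 4010 bp of the window in LIF-ESCs, against 4501 bp in Myc-ESCs. Most of the extra bases belonged to a second Myc-ESC peak (chr16:10787615-10789080, score 56.14) that reached the start site of the neighbouring gene Tnp2, a nuclear protein of sperm. No H3K27me3 peak lay within 281865 bp of the Socs1 start site in LIF-ESCs or 282137 bp in Myc-ESCs.

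Socs2 (chr10:95383903-95417321, minus strand), which restrains growth hormone signalling, had a single short Suz12 peak in Myc-ESCs. It was 248 bp long with a score of 96.37, and its DNA, with 43.1% GC, was poorer in G and C than the other Suz12 peaks at family start sites. It lay in intron 2, 956 bp from the nearest of 4 curated start sites, and inside an H3K4me3 peak present in both cultures (5630 bp in LIF-ESCs, against 5685 bp in Myc-ESCs, both with a score of 3100). That H3K4me3 peak also covers the start site of the long noncoding RNA 5730420D15Rik, 518 bp away, and the mark cannot be assigned to one gene or the other. The nearest Suz12 peak of LIF-ESCs was 149867 bp away. In LIF-ESCs alone, the far end of the gene body carried 2 weak H3K4me3 peaks of 1651 and 1299 bp, with scores of 111.65 and 96.09.

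Socs7 (chr11:97362292-97398542, plus strand), a member with a long amino-terminal region, was the only one with both Polycomb marks within 2500 bp of its start. The H3K27me3 call was lost within 1000 bp, at a score of at least 100 and with lists of equal length. In Myc-ESCs Suz12 peaks of 249 and 409 bp (scores 96.13 and 166.34) spanned the end of exon 1 and the beginning of intron 1, between 750 and 1415 bp past the start site. The H3K27me3 peak of 158 bp (score 71.84) followed at 2149 bp, and all 3 lay under H3K4me3 peaks of both cultures. The Suz12 peak of 249 bp had 69.9% GC and the H3K27me3 peak 37.3% GC, as in the sequences above. The longer Suz12 peak of 409 bp, not shown there, had 57% GC. The Suz12 cover of 658 bp, which was 409 bp at a score of at least 100, stood beside a median of 441 bp over the 917 genes with Suz12 in Myc-ESCs alone. The H3K27me3 cover of 158 bp was below the median of 294 bp of the 1788 genes with H3K27me3 there alone. The nearest LIF-ESC Suz12 peak was 172007 bp away and the nearest H3K27me3 peak 344482 bp. A weak H3K4me3 peak over the last intron and exon (chr11:97392727-97394413, score 92.19) was found in LIF-ESCs alone.

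Cish (chr9:107296659-107302784, plus strand), the founding member of the family and a classical Stat5 target, carried H3K4me3 and no Polycomb peak in either culture. Its H3K4me3 peak was 2751 bp long in LIF-ESCs, against 2641 bp in Myc-ESCs, with scores of 691.07 and 516.48. Of the genes with the mark in both cultures, 28.9% had a shorter LIF-ESC peak and 15.7% a shorter Myc-ESC peak. In Myc-ESCs no family gene had a shorter one. The nearest Suz12 peaks lay 370060 bp away (LIF-ESCs) and 81125 bp away (Myc-ESCs), and the nearest H3K27me3 peak of Myc-ESCs 59782 bp away.

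Socs4 and Socs6 also carried H3K4me3 without a Polycomb peak. At Socs4 (chr14:47276920-47296102, plus strand), a close relative of Socs5, the H3K4me3 peak was 4631 bp long in LIF-ESCs, against 4569 bp in Myc-ESCs, with a score of 3100 in both. It also covers the start site of Wdhd1, which lies 63 bp away and is transcribed in the other direction. The mark cannot be assigned to one gene or the other. At Socs6 (chr18:88865169-88894364, minus strand), whose product binds receptor tyrosine kinases, the peak was 2666 bp long in LIF-ESCs, against 2751 bp in Myc-ESCs, with scores of 1256.21 and 936.06. The nearest Suz12 peaks lay 87635 bp (LIF-ESCs) and 87648 bp (Myc-ESCs) from the Socs4 start site, and 874276 and 874262 bp from that of Socs6.

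Within 2500 bp of a start site, the family thus fell into 4 combinations of the 6 lists. Socs4, Socs5, Socs6 and Cish had H3K4me3 in both cultures and nothing else, a combination shared by 11765 genes (45.7% of all). Socs2 and Socs3 added Suz12 in Myc-ESCs alone, a combination of 543 genes (2.11%). These 2 genes were unlike in other respects. The Suz12 peak of Socs2 scored 96.37 and that of Socs3 3100, and Socs3 had H3K27me3 peaks beyond this window in Myc-ESCs. Socs1 had Suz12 in both cultures (680 genes, 2.64%), and Socs7 had Suz12 and H3K27me3 in Myc-ESCs alone (317 genes, 1.23%). By the summed difference in covered bases over the 6 lists, the genes most like Socs3 were B4galnt1, Eef2k and Kirrel, with differences of 660, 713 and 795 bp and 2005 to 2095 bp of Myc-ESC Suz12. The closest to Socs1 were Acvr2a, Dyrk2 and Pde8b (203 to 393 bp), and to Socs7 Dclk2, Nuak1 and Baiap2 (222 to 383 bp). The closest to Socs2 were Btf3l4, Cbx3 and Pkm at 303 bp each, none of which had any Polycomb cover.

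In base composition, the 4 genes with Suz12 and Socs5 had the highest GC content of the family. Values are for the 1000 bp on either side of a start site, and for Socs2 they are means over its 4 start sites. GC content was 67.5% at Socs1, 65% at Socs2, 64% at Socs3, 63.5% at Socs7 and 63.4% at Socs5, against a median of 50.9% over all genes. It was 54% at Cish, 52.4% at Socs4 and 52% at Socs6. The ratio of observed to expected CpGs did not follow this order, being 0.833 at Socs4 and 0.79 at Socs7, 0.683 to 0.737 at Socs1, Socs2, Socs3, Socs5 and Socs6, and 0.538 at Cish, against a median of 0.434. Socs5, with neither Polycomb mark, was close to the 4 others in both measures. In the same windows TTCNNNGAA was found 4 times at Cish, 2 times at Socs3 and Socs7, 1 time at Socs1 and Socs4, a mean of 1 time per window at Socs2, and not at Socs5 or Socs6. It was present at 47.5% of all genes. CACGTG was found near start sites of Socs2, Socs5 and Socs7, and at 29.9% of all genes.

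The other genes of the pathway were read in the same way. Of 14 LIF receptor, Jak and Stat genes, all had H3K4me3 in both cultures. Suz12 was at 2 of them in LIF-ESCs (Jak1 and Jak2) and at 3 in Myc-ESCs (with Stat5b). H3K27me3 was at 1 in LIF-ESCs (Jak1) and at 4 in Myc-ESCs (with Jak2, Stat5a and Stat5b). Many of these calls were weak. In Myc-ESCs the highest H3K27me3 scores were 63.57 at Stat5a and 58.09 at Stat5b, against 122.82 at Jak1 and 135.27 at Jak2. The Stat5b Suz12 peak scored 72.65. In LIF-ESCs the Suz12 peaks of Jak1 and Jak2 scored 56.81 and 54.06, and the Jak1 H3K27me3 peak 62.0. The alternatives were not run for this list. Over all genes, the LIF-ESC and Myc-ESC shares were 62.7% and 63.9% for H3K4me3. They were 12.2% and 14.7% for Suz12, and 3.84% and 10.8% for H3K27me3. At Jak2, a kinase that binds gp130 and the growth hormone receptor, Suz12 covered 191 bp in LIF-ESCs, against 1137 bp in Myc-ESCs, and H3K27me3 covered 0 and 1036 bp. Of 10 other brakes on Jak and Stat signalling, the Pias proteins and phosphatases among them, 9 had H3K4me3 in both cultures and none had a Polycomb peak. All 4 partners of the SOCS box (Elob, Eloc, Cul5 and Rnf7) had H3K4me3 in both cultures and none had a Polycomb peak. Against the shares of all genes, lists of 10 and 4 genes are too small for such an absence to mark them out. The share of each list with a peak is shown in the plot of pathway lists.

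**Figure D5:**
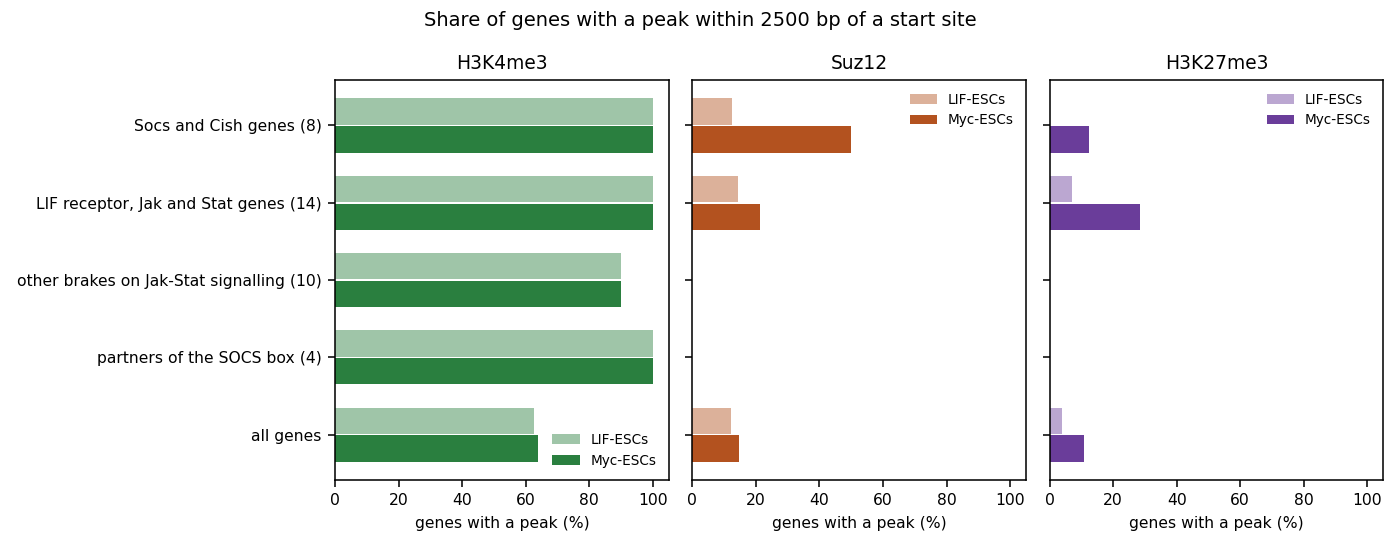
Share of genes (%) with a peak within 2500 bp of a start site in LIF-ESCs (light) and Myc-ESCs (dark), for the 8 family genes, 3 lists of related genes with their number in brackets, and all genes. Suz12 in Myc-ESCs was at 50.0% of the family, 21.4% of the LIF receptor, Jak and Stat genes and 14.7% of all genes.

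These counts depend on how many peaks each list holds. The lists of LIF-ESCs and Myc-ESCs held 32469 and 30345 peaks for H3K4me3, 11305 and 13907 for Suz12, and 3120 and 16717 for H3K27me3, with median lengths of 157 to 269 bp for the Polycomb lists. The depth of the libraries is unknown, and its part in the absence of a mark was not tested. When each pair of lists was limited to equal numbers of peaks by score, the 3 genes with Suz12 in Myc-ESCs alone were still Socs2, Socs3 and Socs7, but the H3K27me3 peaks of Socs7 and Socs3 were lost. Counting only scores of 100 or more, the 3 genes were Socs1, Socs3 and Socs7, since the peaks of Socs1 in LIF-ESCs and of Socs2 in Myc-ESCs scored less. As a check of the cell type, 6 pluripotency genes (Pou5f1, Sox2, Nanog, Klf4, Esrrb and Zfp42) all had H3K4me3 at the start site in both cultures. Of these, Esrrb had Suz12 in both cultures and H3K27me3 in Myc-ESCs, and Klf4 had Suz12 in Myc-ESCs.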

How the data were processed

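ChIP-seq was performed in LIF-ESCs and Myc-ESCs with antibodies to H3K4me3, H3K27me3 and Suz12, from sonicated formaldehyde-crosslinked chromatin. Per the submitters' processing notes and the study's methods, the authors aligned uniquely mapping HiSeq2000 reads to GRCm38 with Bowtie2 2.2.3 and called peaks with MACS 1.4.2 at default parameters. The sources used here do not say if libraries were pooled before peak calling. The deposited score of each peak is not defined in the files and was read as the caller's usual −log10 p-value multiplied by 10. Default settings favour short peaks, which can break broad H3K27me3 domains into pieces.

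Peaks on 21 chromosomes were compared with the start sites of 45302 curated RefSeq transcripts of 25755 genes, pseudogenes excluded, with Python 3.11.15 and numpy 2.4.6. An overlap of at least 1 bp counted, and bases under peaks were summed once. Distances and positions count the start site as 0. Interval code was tested on simulated data, and figures were drawn with matplotlib 3.10.9. Every family gene was named. The genes most like each gene with a Polycomb peak were the 3 with the smallest summed difference in covered bases over the 6 lists. The family and the lists of related genes were chosen with earlier results of these data known. Alternatives were other windows, a stricter score or overlap, equal list lengths and other start-site annotations. The inputs and gene expression were not analysed here.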

Additional observations from a re-analysis of the deposited data

How the results depend on the processing

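No paired analysis was possible because the result comes from no test and each culture has 1 list per antibody. Of the 84 counts recomputed for the 8 genes under the alternatives, 75 stayed within 1.5 times the value reported and 9 did not. Many of the 75 say little about stability. Every H3K4me3 count stayed at 8 or 0, and the LIF-ESC-only counts and LIF-ESC H3K27me3 stayed at 0. With no H3K27me3 in LIF-ESCs, the counts for Myc-ESCs only repeat those for Myc-ESCs. The number of genes with Suz12 in LIF-ESCs went from 1 to 0 at a score of at least 100. The number with H3K27me3 in Myc-ESCs, and likewise in Myc-ESCs only, was 1 within 2500 bp. Both were 2 within 5000 bp, and 0 within 1000 bp, at a score of at least 100 and with lists of equal length, in which the lowest Myc-ESC H3K27me3 score kept was 103.8. Counting predicted RefSeq start sites or GENCODE M21 start sites, or requiring an overlap of 50% of the peak or window, left every count of genes as reported. The numbers with Suz12 in Myc-ESCs (3 or 4) and in Myc-ESCs only (3) stayed close, although the genes behind the latter differed at a score of at least 100. Of 44 values of covered bases, 38 were identical with a score of at least 100 or lists of equal length and 6 moved: at a score of at least 100, Suz12 cover in Myc-ESCs at Socs7 was 409 bp and at Socs2 0 bp, LIF-ESC Suz12 at Socs1 0 bp and Myc-ESC H3K4me3 there 4079 bp, and H3K27me3 at Socs7 was 0 bp under both. Peaks are limited by an unknown depth, by 1 list per culture and antibody, and by many scores tied at 3100. A gene without a peak may carry the mark below the limit of the caller.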
